A study of Mus musculus with 6 samples.

Results

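The 10 genes described here make the transforming growth factor beta (TGF-beta) ligands and the proteins that hold them in store: the 3 ligands (*Tgfb1*, *Tgfb2* and *Tgfb3*), the 4 latent TGF-beta binding proteins or LTBPs (*Ltbp1*, *Ltbp2*, *Ltbp3* and *Ltbp4*), the fibrillins *Fbn1* and *Fbn2*, and *Lrrc32*, which encodes GARP. They were taken by gene name from the 54532 genes of the deposited count table, and all 10 were found and passed the filter on low counts. RNA was sequenced from chondrogenic cells of 1-month-old *Gli1-CreERT2; tdTomato* mice on a C57BL/6 background, taken 1 day after tamoxifen (TAM). All mice carried the reporter and received TAM, so the populations differ in the label and not in genotype. The Gli1+ population was tdTomato+, which marks cells in which the CreER recombinase made under control of *Gli1*, a transcription factor and target of Hedgehog signalling, had recombined the reporter. The Gli1- population was tdTomato- and came from the same mice. Both had been gated as negative for CD45, CD31 and Ter119, antigens of leukocytes, endothelial cells and erythroid cells. The labels name the growth plate as tissue, whereas the study's text names costal cartilage for the RNA sequencing. There were 3 libraries of each population, numbered 1 to 3.

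TGF-beta is secreted in a latent form, in which the mature dimer stays enclosed by its own propeptide. Most cells bind this complex to an LTBP, which is laid down on fibrillin microfibrils and fibronectin, while GARP can hold it at the cell surface instead. Release then requires integrins that pull on the propeptide of TGF-beta1 or TGF-beta3, or proteases and thrombospondin. Among the LTBPs, LTBP2 is the one known not to bind latent TGF-beta, and LTBP4 binds TGF-beta1 poorly. In cartilage, TGF-beta signalling through SMAD2 and SMAD3 is known to hold back hypertrophy of chondrocytes. The comparison addressed here is whether cells labelled through *Gli1* and their unlabelled neighbours contained different amounts of the transcripts for making and storing latent TGF-beta.

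Promoter sequence is shown for the 5 genes on which the main contrasts below turn, so that the stretch upstream of each start can be read beside the level of the gene. RefSeq (GRCm38.p6) gave promoter entries for 7 of the 10 genes. *Tgfb3*, *Fbn2* and *Lrrc32* had none. Each line is read 5′ to 3′ on the strand of the gene and ends just before the annotated start. Capitals mark every match to CAGAC, which SMAD proteins bind, or to GGGCGG, which SP factors bind. A match on the other strand is capitalised too and reads as the reverse complement. The stretches are chr1:186705990-186706239 on the minus strand for *Tgfb2*, chr7:25686752-25687001 on the plus strand for *Tgfb1*, chr17:75005279-75005528 and chr17:75178531-75178780 on the plus strand for 2 starts of *Ltbp1*, chr12:84876533-84876741 on the minus strand for *Ltbp2*, and chr7:27337693-27337862 on the minus strand for *Ltbp4*. For *Ltbp2* and *Ltbp4*, 41 and 80 bases nearest the start lie in exons of other annotated transcripts and are left out.
Tgfb2: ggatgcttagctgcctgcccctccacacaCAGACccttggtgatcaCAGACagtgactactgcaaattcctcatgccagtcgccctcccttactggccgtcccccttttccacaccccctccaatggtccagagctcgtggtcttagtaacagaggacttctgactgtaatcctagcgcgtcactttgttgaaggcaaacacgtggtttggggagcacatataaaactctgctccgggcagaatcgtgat
Tgfb1: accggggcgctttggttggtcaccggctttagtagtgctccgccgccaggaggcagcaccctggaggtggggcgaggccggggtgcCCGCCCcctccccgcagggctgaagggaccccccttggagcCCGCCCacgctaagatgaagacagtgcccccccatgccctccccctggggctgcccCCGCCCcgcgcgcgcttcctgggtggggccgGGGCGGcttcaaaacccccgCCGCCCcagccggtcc
Ltbp1 first start: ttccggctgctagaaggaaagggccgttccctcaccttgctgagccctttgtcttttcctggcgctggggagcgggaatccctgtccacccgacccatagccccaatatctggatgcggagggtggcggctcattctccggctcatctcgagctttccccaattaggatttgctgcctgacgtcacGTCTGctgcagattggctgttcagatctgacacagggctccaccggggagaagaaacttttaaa
Ltbp1 second start: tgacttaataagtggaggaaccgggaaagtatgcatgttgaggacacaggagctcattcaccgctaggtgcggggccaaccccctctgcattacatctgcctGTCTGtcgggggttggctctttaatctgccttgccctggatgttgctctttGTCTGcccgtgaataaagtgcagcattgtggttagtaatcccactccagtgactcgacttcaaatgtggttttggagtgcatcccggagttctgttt
Ltbp2: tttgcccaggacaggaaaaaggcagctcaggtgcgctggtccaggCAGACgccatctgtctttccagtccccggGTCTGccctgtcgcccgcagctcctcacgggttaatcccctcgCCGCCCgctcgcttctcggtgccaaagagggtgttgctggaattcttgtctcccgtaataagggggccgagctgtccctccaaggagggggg
Ltbp4: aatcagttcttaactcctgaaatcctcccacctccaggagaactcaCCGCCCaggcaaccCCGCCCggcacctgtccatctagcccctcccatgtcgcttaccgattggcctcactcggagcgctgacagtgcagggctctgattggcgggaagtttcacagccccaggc

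These 6 stretches differ in their letters. *Tgfb1* had 5 GGGCGG matches and no CAGAC match, at a GC content of 75.2%, whereas *Tgfb2* had 2 CAGAC matches and no GGGCGG match, at 53.6%. CAGAC matches were found upstream of both starts of *Ltbp1*, 1 at the first and 2 at the second, and 2 lay upstream of *Ltbp2*, together with 2 GGGCGG matches in the full 250 bases, 1 of them in the part shown. The full 250 bases of *Ltbp4* held 3 GGGCGG matches, 2 of them within the part shown. *Ltbp4* has 2 further entries at starts downstream, not shown, with 5 and 7 GGGCGG matches at a GC content of 78.3% and 79.2%. These 2 entries, chr7:27333664-27333898 and chr7:27333664-27333913, cover nearly the same bases. Over the 10 promoter entries of the 7 genes, 5 held CAGAC and 6 held GGGCGG, against 42.2% and 32.7% of 32851 mouse promoter windows of 250 bases. Every *Ltbp4* entry was among those with GGGCGG, so the entries are not independent windows. The GLI motif GACCACCCA (0.225% of windows) and the AP-1 motif TGANTCA (6.75%) were searched on both strands as well, and neither was in any of the 10 entries. In these entries no CAGAC match overlapped a GGGCGG match. The counts sum the transcripts from both *Ltbp1* starts, so they do not separate the long form from the short form.

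Library totals lay between 17114101 and 18602482 counts, and 20666 to 23360 genes had a count except in Gli1+ replicate 1, where 15000 had one. *Gli1* itself was at 86, 104 and 152 counts in Gli1+ libraries 1 to 3 and at 14, 19 and 46 in Gli1- libraries 1 to 3. Levels are given as CPM, counts scaled to a common library size by TMM, and comparisons between genes as RPKM, which also divides by the length of the gene in kilobases. Chondrocyte marker genes summed to between 7823 and 34405.8 CPM in all libraries, highest in replicate 2 of both populations. *Col2a1*, the defining collagen of cartilage, was at 2130 CPM or more in each library. Summed CPM of 10 fibroblast markers was 299 to 1431 in Gli1+ and 674 to 4316 in Gli1- libraries. Neutrophil markers summed to 3356 CPM in Gli1- replicate 1 and to between 9.98 and 77.3 CPM in the other 5 libraries, although CD45+ cells had been gated out, and macrophage markers summed to 71.2 to 339 CPM in Gli1+ and 344 to 1117 CPM in Gli1- libraries, highest in Gli1- replicate 1. Smooth muscle and pericyte markers summed to between 303 and 983 CPM, mostly through *Cspg4* at 244 to 922 CPM per library. *Acta2* was at 8.25 to 103 CPM and *Mcam* at 4.97 to 8.62 CPM. Skeletal muscle markers summed to at most 39.98 CPM and erythroid markers to at most 19.96 CPM in any library. Since these are bulk libraries, fewer cells of a type and less RNA per cell cannot be told apart.

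No gene of the 10 passed the threshold of a |log2FC| over 1 and an adjusted p under 0.05 in edgeR's quasi-likelihood test with Benjamini-Hochberg adjustment, nor did any other of the 14801 genes tested (0% called). All adjusted p-values of the 10 were 0.9999. The values below therefore describe 6 libraries. The p-values of this test set the difference between the populations against the spread between these libraries. They treat the 6 libraries as independent, although the same mice gave both populations. By log2FC, 5 of the 10 genes were above 0 and 5 below, with a median of 0.18 against 0.0013 over all genes. At an unadjusted p under 0.05 in the same edgeR test, 3 of the 10 were found, *Ltbp1* and *Lrrc32* on the Gli1+ side and *Ltbp4* on the Gli1- side, where 3.47% of all genes reached this level. Within replicate numbers, 8 of the 10 lay on one side in 3 of 3 pairs, 4 higher in Gli1+ (*Tgfb2*, *Ltbp1*, *Ltbp2* and *Lrrc32*) and 4 lower (*Tgfb1*, *Tgfb3*, *Ltbp3* and *Ltbp4*), where 37.4% of all genes did. For 4 of the 10, *Tgfb2*, *Lrrc32*, *Tgfb1* and *Ltbp4*, the libraries of the populations did not overlap, which held for 8.49% of all genes. With libraries scaled by their totals alone this was left for *Ltbp4* and *Lrrc32*.

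The same mice gave both populations. Libraries of number 2 and of number 3 deviated together, at correlations of 0.720 and 0.471. For number 1 this was not clear, since Gli1+ 1 was closer to Gli1- 3 (0.275) than to Gli1- 1 (0.223). Fits that take the replicate number into account bear on these genes with this limit. In edgeR with the replicate block, 6 of the 10 had an unadjusted p under 0.05 (8.61% of all genes), namely *Tgfb2*, *Tgfb3*, *Ltbp1*, *Ltbp2*, *Ltbp4* and *Lrrc32*, and none passed after adjustment. DESeq2's Wald test with the same block called 3 of the 10 at the threshold, *Ltbp1*, *Ltbp2* and *Ltbp4*, against 2.89% of all genes. The 3 genes called this way all encode LTBPs.

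**Figure D1:**
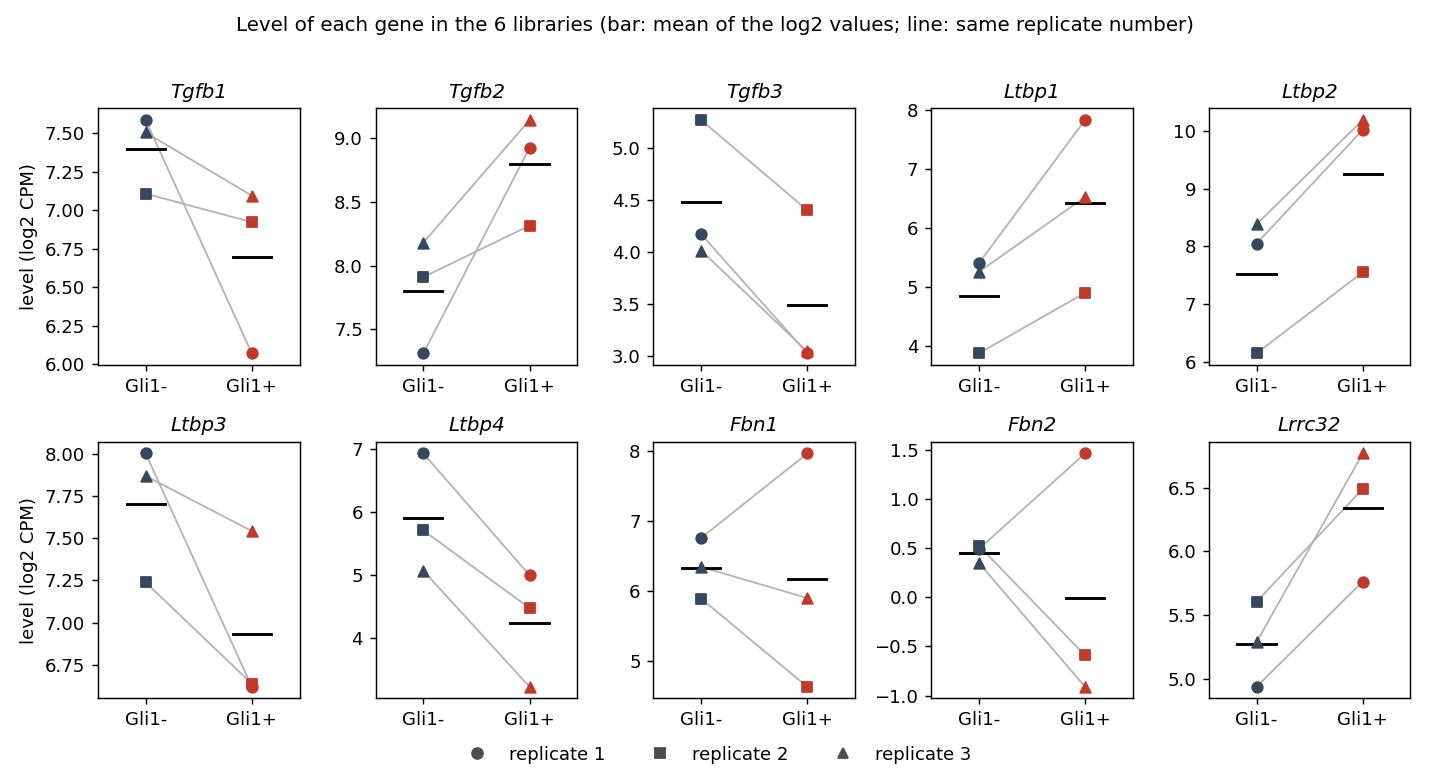
Level of each of the 10 genes in the 6 libraries, as log2 CPM on a separate vertical axis for each gene. Symbols stand for replicate numbers, grey lines join the libraries of one number and black bars are means of the 3 log2 values. *Tgfb2*, *Ltbp1*, *Ltbp2* and *Lrrc32* slope up to Gli1+ in all 3 pairs, *Tgfb1*, *Tgfb3*, *Ltbp3* and *Ltbp4* slope down in all 3, and *Fbn1* and *Fbn2* go up in 1 pair and down in 2.

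Among the ligands, *Tgfb2* was the more abundant in Gli1+ cells and *Tgfb1* and *Tgfb3* in Gli1- cells. *Tgfb2* (ENSMUSG00000039239, chromosome 1, 186622792 to 186705989, minus strand, GRCm38 as for all positions here) encodes TGF-beta2, whose propeptide lacks the integrin-binding motif that the other ligands carry. It was at 486, 318 and 565 CPM in Gli1+ libraries 1, 2 and 3, and at 159, 241 and 290 CPM in Gli1- libraries 1, 2 and 3. Every Gli1+ library thus lay above every Gli1- library, with the lowest Gli1+ value in replicate 2, but the groups overlapped when libraries were scaled by their totals alone. The means were 456 ± 126 and 230 ± 66.3 CPM (SD, n = 3). The log2FC was 0.99 (standard error 0.45, edgeR, unadjusted p = 0.0597). The ratio of Gli1+ to Gli1- was 3.06, 1.32 and 1.95 in pairs 1, 2 and 3. With the replicate block the edgeR log2FC was again 0.99 (standard error 0.33, adjusted p = 0.505, against 0.0447 to 1 over all alternatives).

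*Tgfb1* (ENSMUSG00000002603, chromosome 7, 25687002 to 25705077, plus strand), the most widely expressed of the ligands, was at 67.1, 121 and 137 CPM in the Gli1+ libraries and at 192, 138 and 182 CPM in the Gli1- libraries. The populations did not overlap, but the margin was narrow, 136.6 CPM in Gli1+ replicate 3 against 137.9 CPM in Gli1- replicate 2, and here too scaling by library totals alone made the groups overlap. The log2FC was -0.66 (standard error 0.42, edgeR, unadjusted p = 0.158), and -0.43 without Gli1+ replicate 1. The summed macrophage markers were also lower in all Gli1+ libraries. *Cd14* and *Cd68* made up most of the sum except in Gli1- library 1, where *Lyz2* was at 581 CPM. *Csf1r* was at 54.1 CPM in Gli1- library 1. It was at 1.54 to 3.60 CPM in Gli1+ libraries and at 1.26 and 1.32 CPM in Gli1- libraries 2 and 3. *Csf1r* was named after its values were seen. The part of these markers in the level of *Tgfb1* was not tested. *Tgfb3* (ENSMUSG00000021253, chromosome 12, 86056745 to 86079041, minus strand), the least abundant ligand, was at 8.04, 21 and 8.14 CPM in Gli1+ and 17.9, 38.3 and 16.0 CPM in Gli1- libraries. Replicate 2 was highest in both populations and the groups overlapped, whereas within pairs the Gli1+ level was 0.450, 0.548 and 0.508 of the Gli1- level. Its log2FC was -0.96 (standard error 0.58, edgeR, unadjusted p = 0.139), and -1.0 (standard error 0.29, adjusted p = 0.465, against 0.0271 to 1 over all alternatives) with the replicate block. With no block, leaving out Gli1- replicate 2 gave -0.48 and leaving out Gli1+ replicate 2 gave -1.59. *Tgfb3* overlaps *Ttll5* on the opposite strand, which had 1186 counts over all libraries against 1876 for *Tgfb3*, so part of its reads may belong to either gene if counting did not use the strand.

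The share of each ligand in the summed RPKM of the 3 ligands does not depend on the single factor by which each library was scaled. A difference between libraries that varies with gene length would not cancel, and shares were not recomputed with such a trend removed. *Tgfb2* made up 84.3%, 64.5% and 76.8% of this sum in Gli1+ libraries 1, 2 and 3, and 38.7%, 51.8% and 55.1% in Gli1- libraries 1, 2 and 3. *Tgfb1* made up 13.4%, 28.2% and 21.3% in Gli1+ and 53.8%, 34.1% and 39.7% in Gli1- libraries. In neither case did the populations overlap, and the mean share differed by 26.6 percentage points for *Tgfb2* and by -21.5 points for *Tgfb1* (2-sided exact permutation tests, p = 0.1, which is the lower limit of the test for 3 libraries against 3). The *Tgfb2* to *Tgfb1* ratio was 6.30, 2.29 and 3.60 in Gli1+ and 0.720, 1.52 and 1.39 in Gli1- libraries. *Tgfb3* was the minor ligand in each library, at 1.89% to 7.29% in Gli1+ and 5.21% to 14.1% in Gli1- libraries, which overlap. The sum itself was 104 ± 21.3 RPKM in Gli1+ and 80.7 ± 10.03 RPKM in Gli1- cells (SD, n = 3), and the populations overlapped (2-sided exact permutation test, p = 0.2). *Tgfb2* was the largest share in all Gli1+ libraries and in Gli1- libraries 2 and 3, whereas *Tgfb1* was ahead in Gli1- library 1, so the populations differed in the size of the shares. No difference in the total was detectable with 3 libraries each.

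The LTBPs divided in the same manner, with *Ltbp1* and *Ltbp2* at the higher mean in Gli1+ cells and *Ltbp3* and *Ltbp4* in Gli1- cells. *Ltbp1* (ENSMUSG00000001870, chromosome 17, 75005568 to 75392512, plus strand), the prototype carrier of latent TGF-beta, was at 226, 29.7 and 91.5 CPM in Gli1+ and 42.0, 14.5 and 37.9 CPM in Gli1- libraries. The spread within Gli1+ was 7.63-fold from lowest to highest, and replicate 2 of Gli1+ lay below replicates 1 and 3 of Gli1-. Within pairs the ratio was 5.39, 2.04 and 2.41, and the log2FC was 1.88 (standard error 0.75, edgeR, unadjusted p = 0.0367). Without Gli1+ replicate 1 it was 0.92. In DESeq2 with the replicate block the log2FC of *Ltbp1* was 1.56 (standard error 0.41, adjusted p = 0.00819, against 0.000421 to 1 over all alternatives).

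*Ltbp2* (ENSMUSG00000002020, chromosome 12, 84783212 to 84876532, minus strand), which encodes a microfibril protein of elastic tissues, had the most counts of the 10 genes. It was at 1037, 188 and 1165 CPM in Gli1+ and 265, 70.9 and 334 CPM in Gli1- libraries. Replicate 2 was lowest in both populations, by enough for the groups to overlap, but the ratio within pairs was even, 3.91, 2.65 and 3.49. The log2FC was 1.83 without the block (standard error 0.81, edgeR, unadjusted p = 0.0535) and 1.73 with it (standard error 0.27, edgeR, unadjusted p = 0.000959, adjusted p = 0.307). DESeq2 with the replicate block gave 1.71 (standard error 0.31, adjusted p = 9.05e-06, against 1.86e-10 to 1 over all alternatives), the smallest adjusted p of the 10 genes in that fit.

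*Ltbp4* (ENSMUSG00000040488, chromosome 7, 27305136 to 27337692, minus strand), best known for its part in elastic fibre assembly in lung and skin, was at 31.9, 22.2 and 9.30 CPM in Gli1+ and 121, 52.1 and 33.4 CPM in Gli1- libraries. Each Gli1+ library lay below all Gli1- libraries, and within pairs its level was 0.263, 0.426 and 0.278 of that in Gli1-. The log2FC was -1.71 (standard error 0.64, edgeR, unadjusted p = 0.0280). DESeq2 with the replicate block gave -1.68 (standard error 0.36, adjusted p = 0.00032, against 1.02e-05 to 1 over all alternatives). The highest level was in Gli1- replicate 1, the library with the high neutrophil markers, and without that library the log2FC was -1.03. Fibroblast markers were lower in Gli1+ too, with 9 of 10 at a log2FC below 0 and a list median of -1.27. The part of neutrophils or fibroblasts in the level of *Ltbp4* was not tested.

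*Ltbp3* (ENSMUSG00000024940, chromosome 19, 5740904 to 5758532, plus strand), whose loss is known to disturb skeletal growth, was at 98.3, 99.5 and 186 CPM in Gli1+ and 256, 151 and 234 CPM in Gli1- libraries. Gli1+ replicate 3 lay above Gli1- replicate 2, so the groups overlapped, although Gli1+ was lower in 3 of 3 pairs. Its log2FC was -0.74 (standard error 0.45, edgeR, unadjusted p = 0.137), and -1.12 without Gli1+ replicate 3. The length listed for *Ltbp3* is 5190 bases, whereas its exons in GENCODE M21 span 9069 bases, which bears on its RPKM.

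Per length, *Ltbp2* made up 73.6%, 47.4% and 75.6% of the summed RPKM of the 4 LTBPs in Gli1+ libraries 1, 2 and 3, and 31.0%, 18.4% and 43.1% in Gli1- libraries 1, 2 and 3. *Ltbp3* made up 11%, 39.6% and 19.0% in Gli1+ and 47.2%, 61.6% and 47.6% in Gli1- libraries. Neither pair of groups overlapped, and *Ltbp2* led in all 3 Gli1+ libraries whereas *Ltbp3* led in all 3 Gli1- libraries. The lead of *Ltbp3* rests on its deposited length. The mean share differed by 34.7 percentage points for *Ltbp2* and by -28.9 points for *Ltbp3* (2-sided exact permutation tests, p = 0.1 for both). With the GENCODE M21 lengths, an alternative chosen after seeing the data, *Ltbp2* was at 72.3% in Gli1+ and 39.3% in Gli1- on average, and *Ltbp3* at 15.3% and 38.7%. *Ltbp2* was then ahead of *Ltbp3* in Gli1- library 1 (38.9% against 33.9%) and library 3 (54.2% against 34.2%), as it was in CPM, and *Ltbp3* led in Gli1- library 2 alone. *Ltbp1* made up 4.63% to 12.6% in Gli1+ and 2.94% to 3.84% in Gli1- libraries, without overlap. The share of *Ltbp4* was 0.763% to 7.09% in Gli1+ and 5.47% to 17.9% in Gli1- libraries, which overlap. The *Ltbp1* to *Ltbp4* ratio was 4.38, 0.825 and 6.07 in Gli1+ and 0.214, 0.172 and 0.70 in Gli1- libraries. In total the LTBPs came to 136 ± 76.6 RPKM in Gli1+ and 82.1 ± 30.6 RPKM in Gli1- cells (SD, n = 3), with overlap (2-sided exact permutation test, p = 0.3). Of the 7 shares of ligands and LTBPs, 5 did not overlap between the populations. These 5 are not separate results, because the shares of a set add up to a whole. A higher share of *Tgfb2* or *Ltbp2* thus comes with lower shares elsewhere in its set. The p-value of 0.1 is the lowest such exact tests can give.

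**Figure D2:**
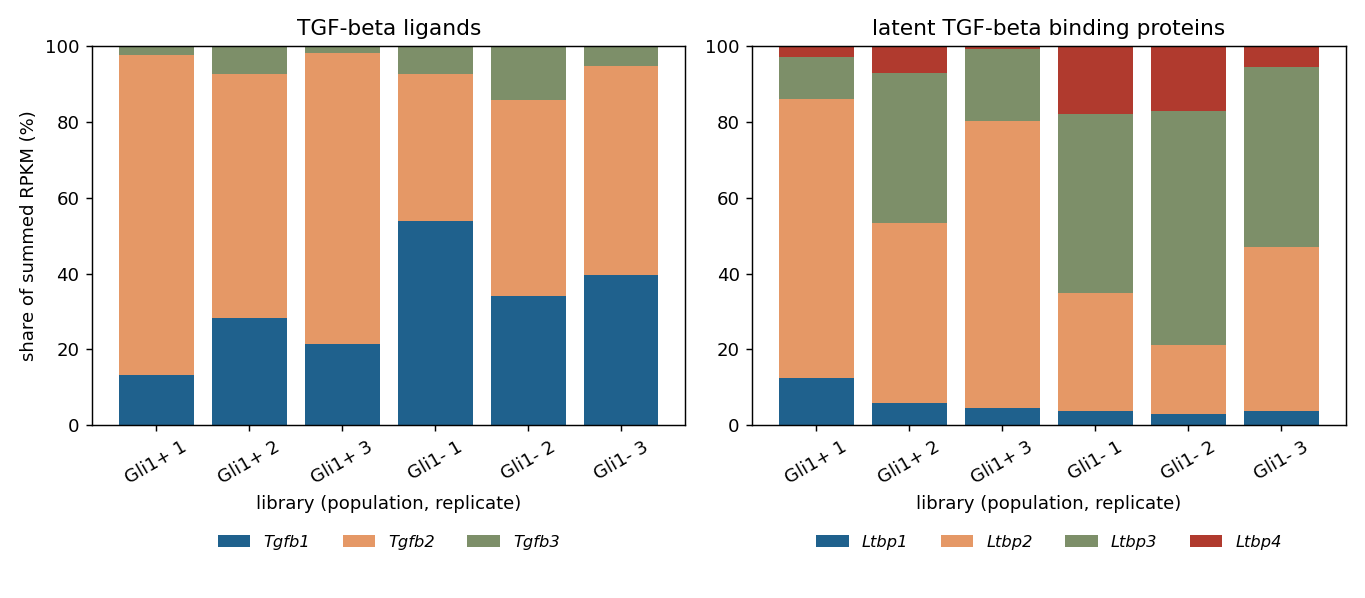
Share (%) of each ligand in the summed RPKM of the 3 ligands (left) and of each LTBP in that of the 4 LTBPs (right), with 1 bar per library. *Tgfb2* takes 64.5% to 84.3% of the ligand bars in Gli1+ against 38.7% to 55.1% in Gli1- libraries, and *Ltbp2* takes 47.4% to 75.6% of the LTBP bars against 18.4% to 43.1%.

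The fibrillins, the main proteins of the microfibrils on which LTBPs are deposited, showed no direction that held. *Fbn1* (ENSMUSG00000027204, chromosome 2, 125300594 to 125507993, minus strand) was at 250, 24.8 and 59.8 CPM in Gli1+ and 108, 59.4 and 81.4 CPM in Gli1- libraries. A single library, Gli1+ replicate 1, lay far above the rest, while Gli1+ replicate 2 was the lowest of all. The log2FC was 0.42 (standard error 0.77, edgeR, unadjusted p = 0.597). It was -1.0 without Gli1+ replicate 1 and -0.18 with the replicate block. *Fbn2* (ENSMUSG00000024598, chromosome 18, 58008623 to 58209926, minus strand), the fibrillin best known from fetal tissue, had only 50, 9 and 8 counts in Gli1+ and 25, 20 and 22 counts in Gli1- libraries. Its level averaged 1.21 ± 1.25 and 1.26 ± 0.0858 CPM (SD, n = 3) in Gli1+ and Gli1- cells, with a log2FC of -0.06 (standard error 0.94, edgeR, unadjusted p = 0.949) and of -1.39 without Gli1+ replicate 1. At this depth and spread a difference in *Fbn2* was not detectable. *Fbn1* exceeded *Fbn2* per length in each library, by 38.7 to 123 times.

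*Lrrc32* (ENSMUSG00000090958, chromosome 7, 98489283 to 98502181, plus strand) encodes GARP, known above all as the anchor of latent TGF-beta on regulatory T cells and platelets. It was at 54.2, 89.9 and 109 CPM in Gli1+ and 30.5, 48.5 and 38.9 CPM in Gli1- libraries. The lowest Gli1+ library lay above the highest Gli1- library, and the ratio within pairs was 1.78, 1.85 and 2.80. The log2FC was 1.10 (standard error 0.42, edgeR, unadjusted p = 0.0306), and 1.06 in DESeq2 with the replicate block (adjusted p = 0.0541, against 0.000179 to 1 over all alternatives), just short of the threshold. Leaving out each library in turn gave 0.87 to 1.32. Lymphocyte and regulatory T cell markers summed to only 1.27 to 4.91 CPM in Gli1+ and 0.663 to 3.91 CPM in Gli1- libraries over 10 genes, and platelet markers to 3.60 to 12.5 CPM and 6.30 to 12.01 CPM over 8. *Foxp3*, which defines regulatory T cells, was at most at 1.27 CPM in any library. Markers of endothelial cells, which can also make GARP, summed to 13.6 to 19.5 CPM in Gli1+ and 38.0 to 87.5 CPM in Gli1- libraries, mostly through *Erg*. *Cdh5* was at 0, 0.798 and 0 CPM in Gli1+ and at 3.36, 1.13 and 0.370 CPM in Gli1- libraries. *Cdh5* was named after its values were seen. The part of these cell types in the level of *Lrrc32* was not tested.

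**Figure D3:**
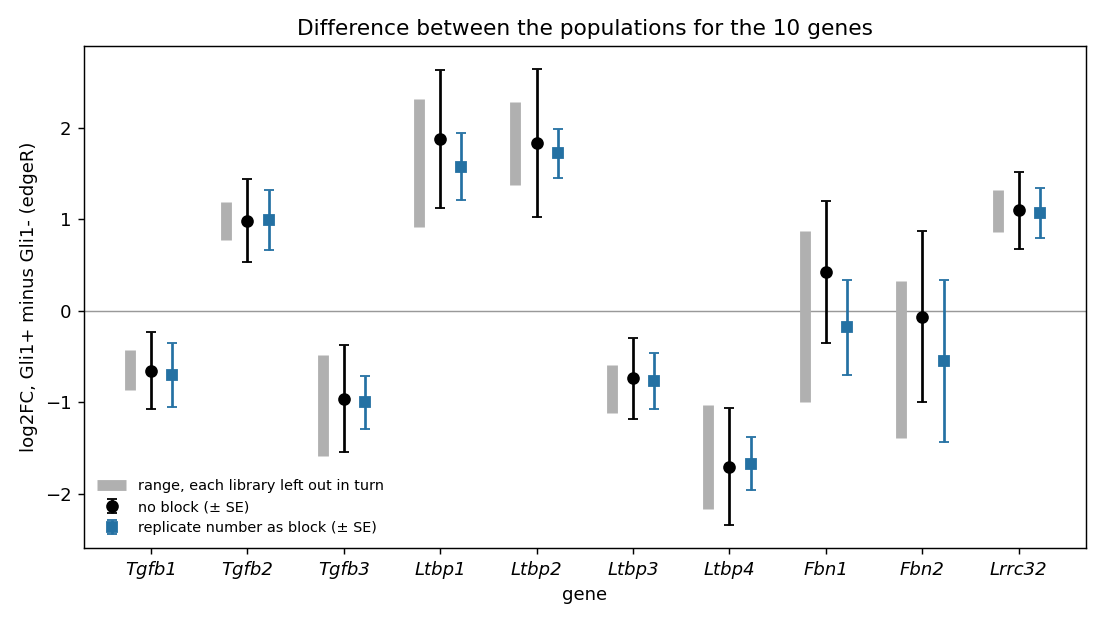
Difference between the populations (log2FC, Gli1+ minus Gli1-) for the 10 genes, from edgeR without a block (black, ± standard error) and with the replicate number as a block (blue, ± standard error). Grey bars span the values with each library left out in turn, and they cross 0 only for *Fbn1* (-1.0 to 0.88) and *Fbn2* (-1.39 to 0.33).

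Set in order per length, the most abundant transcripts in Gli1+ cells were *Ltbp2* (97.3 ± 64.9 RPKM, SD, n = 3) and *Tgfb2* (78.8 ± 21.8 RPKM). *Ltbp3*, *Tgfb1* and *Lrrc32* followed at 24.7, 21.5 and 18 RPKM, then *Ltbp1* and *Fbn1* at 11.1 and 9.19 RPKM, *Tgfb3* and *Ltbp4* at 3.66 and 3.27 RPKM, and *Fbn2* at 0.115 RPKM. Only the steps from *Tgfb2* to *Ltbp3* and from *Ltbp4* to *Fbn2* separated all libraries of neighbouring genes. In Gli1- cells *Ltbp3* (41.1 ± 10.7 RPKM), *Tgfb2* (39.7 RPKM), *Tgfb1* (33.8 ± 5.71 RPKM) and *Ltbp2* (27.3 ± 16.7 RPKM) came first. They were followed by *Ltbp4*, *Lrrc32*, *Tgfb3* and *Fbn1* between 10.7 and 6.85 RPKM, *Ltbp1* at 3.004 RPKM and *Fbn2* at 0.120 RPKM, and only the steps from *Fbn1* to *Ltbp1* and from *Ltbp1* to *Fbn2* separated all libraries of neighbouring genes. By mean RPKM, *Ltbp4* and *Ltbp1* thus exchanged their order, *Ltbp1* ranking 6 and *Ltbp4* 9 of the 10 in Gli1+ cells, and *Ltbp4* 5 and *Ltbp1* 9 in Gli1- cells. In Gli1+ library 2, however, *Ltbp1* was below *Ltbp4*, at 2.83 and 3.43 RPKM.

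The genes most like 4 of these in their pattern over the 6 libraries were found by the mean absolute difference of log2 CPM, each gene centred on its own mean. For *Tgfb2* they were *Nek1* (0.0965), *Msrb3* (0.113) and *Aldh1l2* (0.114). For *Ltbp1* they were *Palb2* (0.119), *Nin* (0.132) and *Rai14* (0.142). *Fbn1* was closest to *Neto2* (0.0886), *Dchs2* (0.121) and *Zfp704* (0.188). *Lrrc32* was closest to *Spdl1* (0.0725), *Tpm1* (0.131) and *Lamb3* (0.154). Within the 10 genes, *Tgfb2* and *Lrrc32* were nearest to each other at 0.359. The member nearest to *Ltbp1* was *Ltbp2* at 0.424, and that nearest to *Fbn1* was *Fbn2* at 0.499. These are the smallest of far fewer distances than those over all genes. The comparison therefore cannot tell whether the 10 genes were less alike among themselves. With 6 libraries and 14801 genes to choose from, these names describe the pattern only.

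Genes around this store were compared as 5 lists, and no list member was called by edgeR. DESeq2 with the replicate block called 1 of 14 receptors and signal carriers, 2 of 22 genes of release and processing, 2 of 11 binding proteins, 5 of 23 microfibril and elastic fibre genes and 1 of 14 response genes, against 2.89% of all genes. Of 14 receptors and signal carriers, 4 had a log2FC above 0 and 10 below, with a median of -0.21. *Smad3*, which carries the signal from the TGF-beta receptor to the nucleus, was at 92.5, 103 and 73.4 CPM in Gli1+ and 292, 295 and 329 CPM in Gli1- libraries. The groups stood well apart, with a log2FC of -1.77 (standard error 0.38, edgeR, unadjusted p = 0.00164), and it was the 1 list member that DESeq2 with the replicate block called. *Smad2*, its close relative, was at 71.4 and 62.1 CPM on average, with a log2FC of 0.20, and the receptors *Tgfbr1* and *Tgfbr2* were at a log2FC of 0.10 and -0.03. The other receptor genes of the list, *Tgfbr3*, *Acvrl1* and *Eng*, were at -0.77, -1.74 and -0.22, each lower in Gli1+ in every pair. For *Tgfbr3* the groups did not overlap, at 150, 145 and 79.9 CPM in Gli1+ and 169, 206 and 266 CPM in Gli1- libraries. *Skil* and *Smurf2*, which dampen the signal, were at a log2FC of -0.41 and 0.35. *Smad2* and these receptor genes were named after their values were seen.

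Of 22 genes tested (23 listed) for release and processing of latent TGF-beta, 9 were above 0 and 13 below (median -0.39, and -0.07 without Gli1- replicate 1). *Mmp3*, a matrix metalloproteinase that degrades many matrix proteins, was at 5218, 7947 and 16267.7 CPM in Gli1+ and 2398, 2545 and 4374 CPM in Gli1- libraries. The groups did not overlap (log2FC 1.66, standard error 0.65, edgeR, unadjusted p = 0.0339). It passed the threshold in DESeq2 with the replicate block. *Thbs1*, encoding thrombospondin 1, an activator of latent TGF-beta, was also higher in all Gli1+ libraries, at 3691 ± 625 against 2316 ± 661 CPM (SD, n = 3), with a log2FC of 0.67. *Plau*, encoding urokinase, was at 643 and 485 CPM. *Itgb8*, an integrin chain that releases TGF-beta1 and TGF-beta3, was at 1.69 to 3.38 CPM in Gli1+ and 7.63 to 15.3 CPM in Gli1- libraries (log2FC -2.07, edgeR, unadjusted p = 0.00666), which passed in DESeq2 with the block as well. The other integrin chains tested went both ways. *Itgav* and *Itgb1* were at a log2FC of 1.11 and 0.23, and *Itgb3* and *Itgb5* at -0.65 and -0.67. *Nrros*, the anchor of latent TGF-beta on macrophages, was at 34.3 CPM in Gli1- replicate 1 and at 1.16 CPM or less in the other 5 libraries, the same library that held the neutrophil and macrophage markers. *Itgb8*, the other integrin chains and *Nrros* were named after their values were seen.

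Of 11 proteins that bind TGF-beta in the matrix, 6 were above 0 and 5 below, with a median of 0.05. *Fn1*, encoding the fibronectin to which LTBPs attach, was at 69131.4, 15114.6 and 55914.6 CPM in Gli1+ and 17185.6, 10089.9 and 24555.5 CPM in Gli1- libraries. It was higher in Gli1+ in 3 of 3 pairs but the groups overlapped (log2FC 1.43, edgeR, unadjusted p = 0.106). DESeq2 with the replicate block called *Fn1* higher in Gli1+ (log2FC 1.25, adjusted p = 0.0389) and 1 other gene of this list lower. The small proteoglycans *Dcn* and *Bgn*, which bind active TGF-beta, were at a log2FC of -0.39 and -0.37. Among 14 response genes, 5 were above 0 and 9 below (median -0.43, and -0.12 without Gli1+ replicate 1), none with an unadjusted p under 0.05 in edgeR. The 1 response gene that DESeq2 with the replicate block called was *Tgfbi*, higher in Gli1+ (log2FC 1.03). *Tgfbi* was named after its values were seen. *Ctgf* and *Junb*, among the most abundant response genes, had a log2FC of 0.82 and -1.17.

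The list of 23 microfibril and elastic fibre genes tested had 4 members above 0 and 19 below, with a median of -0.88 against 0.0013 over all genes, of which 7388 of 14801 were below 0. By pairs, 12 of the 23 were lower and 2 were higher in Gli1+ in 3 of 3. The count below 0 was 18 without Gli1+ replicate 1, 18 without Gli1- replicate 1 and 19 with the replicate block. Fibroblast markers were lower in Gli1+ alongside, as given above, and their part in this was not tested. Of the 3 most abundant members, *Loxl2* and *Hspg2* were above 0. *Loxl2*, a lysyl oxidase that crosslinks collagen, was at 925, 182 and 868 CPM in Gli1+ and 181, 97.5 and 215 CPM in Gli1- libraries. It overlapped only through Gli1+ replicate 2 (log2FC 2.002, standard error 0.68, edgeR, unadjusted p = 0.0182). *Hspg2*, encoding perlecan, had a log2FC of 1.43 and *Lox* one of -0.03. *Eln*, the elastin gene itself, was scarce, at 3.33, 14.2 and 3.15 CPM in Gli1+ and 12.9, 52.4 and 4.71 CPM in Gli1- libraries, lower in Gli1+ in 3 of 3 pairs. *Eln* was named after its values were seen. DESeq2 with the replicate block called 2 members of this list higher in Gli1+, *Loxl2* and *Hspg2*, and 3 lower, *Eln* among them.

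**Figure D4:**
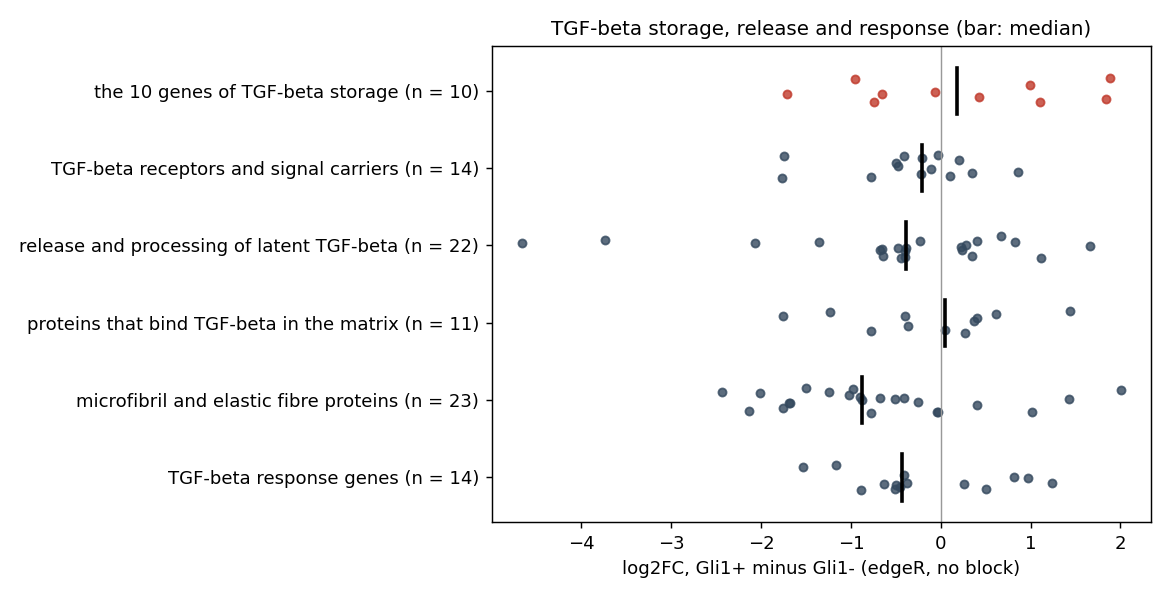
Difference between the populations (log2FC, Gli1+ minus Gli1-, edgeR without a block) of each tested gene of the store (red) and of 5 lists of surrounding genes (blue), with the median of each list as a black bar. The vertical scatter within a row has no meaning. The 10 genes spread from -1.71 to 1.88 around a median of 0.18, whereas 19 of 23 microfibril and elastic fibre genes lie below 0.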

How the data were processed

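RNA was extracted with Trizol, and poly-A RNA was converted to libraries with random primers, as the labels describe. Sequencing and primary analysis were done by Novogene. The authors deposited raw read counts per gene in 1 table, with each gene's length and coordinates. The submitters' processing notes name HISAT2 2.0.5, featureCounts 1.5.0-p3 and mm10, while the annotation release and the use of strand are not given in the sources used here. All count columns matched a label. In this re-analysis genes were filtered with filterByExpr (minimum count 10) and scaled by TMM. Populations were compared with edgeR 4.0.16 (quasi-likelihood, R 4.3.3) without a block, with Benjamini-Hochberg adjustment over the 14801 genes tested, and a DEG needed an absolute log2FC above 1 and an adjusted p below 0.05. RPKM used the deposited lengths. Single values were compared by 2-sided exact permutation tests. Alternatives were other scalings, DESeq2 1.42.0, limma-voom (limma 3.58.1), other filters, a length correction (lowess span 0.3), the replicate block and left-out libraries. The fits were tested on simulated data, where passing was required only at a spread lower than that of these data.

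According to the paper the same mice gave both populations. After each gene was centred on its population mean, the correlation of the 2 libraries with the same number was 0.223 (number 1), 0.720 (number 2) and 0.471 (number 3) across 14801 genes, which are not independent. Among unlike numbers, Gli1+ 1 with Gli1- 3 gave 0.275, more than Gli1+ 1 with its own number, Gli1+ 3 with Gli1- 1 gave 0.107, and the others were negative. Each same-number value exceeds 0.1, and on this ground replicate numbers were treated as pairs. The values of Gli1+ 1 with Gli1- 3 and of Gli1+ 3 with Gli1- 1 exceed 0.1 as well. The rule therefore does not tell pairs from other combinations, least of all for number 1. The sources do not say that a number marks 1 mouse, so the fit without the block was kept as the main one.

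The 10 genes, the lists and the tests were chosen with earlier results of these data known. Named genes were the 10, *Gli1*, at most the 3 members of each pathway or marker list with the highest mean CPM, and for *Tgfb2*, *Ltbp1*, *Fbn1* and *Lrrc32* the 3 genes nearest in pattern. Other genes are said to have been named after their values were seen. Single values of some list members and overlapping genes are not reported here. Promoter sequences came from RefSeq (GRCm38.p6), and exon lengths and overlapping genes from GENCODE M21, in which 9 of the 10 genes had the deposited coordinates.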

Additional observations from a re-analysis of the deposited data

How the results depend on the processing

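Over 22 other fits, the log2FC of the 10 genes gave 220 values, of which 200 kept their direction and their side of the threshold, 9 newly passed it and 11 changed sign. The sign changes were 9 for *Fbn1* and 2 for *Fbn2*. *Fbn1* was at -0.18 with the replicate block, -0.19 in DESeq2 with the block, -0.16 in limma-voom, -0.10 in limma-voom with the block, -0.10 with the length trend removed and -0.34 with that and the block. It was at -1.0 without Gli1+ replicate 1, and in DESeq2 with the block at -0.86 without replicate 1 (adjusted p = 0.0267, against 0.0267 to 1 over all its alternatives) and -0.011 without replicate 3. With each library left out of edgeR in turn, *Fbn1* ranged from -1.0 to 0.88 and *Fbn2* from -1.39 to 0.33, the latter at 0.26 without Gli1+ replicate 2 and at 0.33 when Gli1+ replicate 3 was dropped. The cause was not tested.

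Over all genes, DESeq2 called 30 DEGs (15 higher, 15 lower), DESeq2 with the replicate block 428 (115 higher, 313 lower) and edgeR without the filter 267 (20 higher, 247 lower). DESeq2 with the block called 71 without replicate 3, 174 without replicate 2 and 781 without replicate 1. Of the 10 genes it called 3 with all libraries (*Ltbp1*, *Ltbp2* and *Ltbp4*), 4 without replicate 1 (these and *Lrrc32*), 2 without replicate 2 (*Ltbp2* and *Ltbp4*) and 0 without replicate 3. The number of the 10 at an unadjusted p under 0.05, 3 in the edgeR fit reported, was 6 with the replicate block, 5 in DESeq2, 7 in DESeq2 with the block, 7 in limma-voom with the block, 5 with the length trend removed and 7 with that and the block. With 1 library left out of edgeR it ranged from 0 (without Gli1+ replicate 3 or without Gli1- replicate 1) to 5 (without Gli1+ replicate 2), with 1 without Gli1- replicate 3. In DESeq2 with the block it was 8 without replicate 1 and 5 without replicate 2. Scaled by library totals alone, 2 of the 10 did not overlap (*Ltbp4* and *Lrrc32*) in place of 4. The median log2FC of all genes lay over 0.1 from 0 without the filter (-0.11) and in DESeq2 with the block without replicate 2 (-0.11). Differences between the populations in the shares of ligands and LTBPs moved by less than the replicate spread under CPM, GENCODE M21 lengths and each left-out library. The *Ltbp3* share itself in Gli1- cells was 52.1% with deposited and 38.7% with M21 lengths. Shares of ligands and LTBPs were not recomputed with the length trend removed.

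The spread between libraries (biological coefficient of variation 0.662, and 0.466 with the replicate block) limits these comparisons more than depth, apart from *Fbn2* with 8 to 50 counts per library. With 3 libraries each, the exact permutation test cannot go below 0.1.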
